A study of Mus musculus with 8 samples.

Results

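Bipolar cells were followed in whole retinas through 9 marker genes, taken by gene symbol from the 55213 genes counted. The markers are Vsx1, Isl1, Bhlhe23, Prkca, Pcp2, Scgn, Cabp5, Car8 and Lrtm1, and all 9 were found and tested. The retinas came from germ-free (GF) adult male C57B1/6 mice, the strain as the labels spell it, 1 library of total retinal RNA per mouse. From 7 weeks of age, 4 mice ate a normal diet (GF-ND, mice 9, 10, 11 and 12) and 4 a high-fat diet with 23% saturated fat (GF-HFD, mice 13, 15, 16 and 19) for 8 weeks, and both groups were taken at 15 weeks. Both groups lack gut microbes, so the comparison is between diets in germ-free mice. A library of the whole retina mixes all its cell types.

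Bipolar cells are the interneurons that carry the signal of rods and cones to amacrine and ganglion cells. Rod bipolar cells and ON cone bipolar cells depolarise in light, through the glutamate receptor mGluR6, while OFF cone bipolar cells hyperpolarise in light, through ionotropic glutamate receptors. Homeodomain and bHLH transcription factors set these types apart, and calcium-binding proteins and a protein kinase C isoform are the usual stains for them.

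Over all 8 mice, no bipolar marker was called different between the diets. Fitted levels were higher in GF-HFD retinas for 8 of the 9 markers and lower for Pcp2, with log2 fold changes from -0.05 to 0.29 and a median of 0.10. With edgeR's quasi-likelihood test and Benjamini-Hochberg adjustment over the 26900 genes tested, 0 of 9 markers had an adjusted p under 0.05 (smallest 0.667), and 0 of 9 had an unadjusted p under 0.05. The same adjusted threshold was met by 0 genes of the whole table (0%), and an unadjusted p under 0.05 by 1985 genes (7.38%). DESeq2 and limma-voom also called 0 of the 9. A fitted level above 0 on the log2 fold change scale was found for 46.3% of all genes tested and for 61.3% of the 10291 genes that had, like the markers, at least 10 CPM in at least 4 libraries, with median log2 fold changes of -0.03 and 0.04. In 0 of 9 markers did all GF-HFD mice lie on one side of all GF-ND mice, which held for 4.83% of all genes tested (2.29% with GF-HFD higher and 2.54% with GF-HFD lower) and for 6.1% of those with at least 10 CPM (4.6% with GF-HFD higher). Among the latter, an unadjusted p under 0.05 was met by 5.17% higher and 3.45% lower. CPM is the gene's count relative to the TMM-adjusted size of its library. In whole-retina RNA, fewer cells of a type and less RNA per cell cannot be told apart.

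The libraries held 39258006 to 44357518 counts, and the markers had between 826 and 19633 counts in each, so that counting error, with each count taken as independent, was at most 3.48% of a value. Rod genes, which mark the tissue as retina, summed to 34530 to 76000 CPM. GF-ND mouse 11 stands apart: genes of the lens made up 6.44% of its counts, against 1.11% in GF-HFD mouse 19 and 0.0174 to 0.157% in the other 6 libraries, and its rod genes had the lowest sum. Its cone genes summed to 682 CPM, against 1034 to 1357 CPM in the other libraries. Its sums were the highest for amacrine genes (906 against 658 to 813 CPM) and OFF cone bipolar genes (652 against 461 to 546 CPM). For ganglion cell genes it had 934 CPM, below GF-HFD mouse 15 (959 CPM). All 14 lens markers were tested and none was at 0 counts, and their sum ran from 169 to 67550 CPM in GF-ND and from 215 to 11190 CPM in GF-HFD libraries. Values without mouse 11 are given for all 9 markers. A fit with the 14 lens genes left out called 0 markers and 0 genes at an adjusted p under 0.05. Vsx1 was there at a log2 fold change of 0.17. That fit keeps mouse 11 and all its other genes, so it cannot show the part of lens RNA in the results, which was not tested.

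The sequences before the start of 3 markers are shown because they hold the letters TAATCC, the core bound by the photoreceptor and bipolar cell homeodomain factors OTX2 and CRX. They are from RefSeq on GRCm38.p6, run 5′ to 3′ and end before the annotated gene, and capitals mark TAATCC or its reverse complement GGATTA.
Isl1 (GRCm38.p6, chr13:116309690-116309938, minus strand): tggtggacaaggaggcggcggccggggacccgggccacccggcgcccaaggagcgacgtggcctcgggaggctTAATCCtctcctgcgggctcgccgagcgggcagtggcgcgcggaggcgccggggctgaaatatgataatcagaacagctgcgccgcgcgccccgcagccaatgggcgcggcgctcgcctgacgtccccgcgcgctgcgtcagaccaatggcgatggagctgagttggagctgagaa
Cabp5 (GRCm38.p6, chr7:13397905-13398131, plus strand): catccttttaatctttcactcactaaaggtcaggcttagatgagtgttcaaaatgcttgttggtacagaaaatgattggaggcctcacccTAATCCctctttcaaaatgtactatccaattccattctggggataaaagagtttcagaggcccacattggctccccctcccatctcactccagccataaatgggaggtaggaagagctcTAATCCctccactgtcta
Lrtm1 (GRCm38.p6, chr14:29017958-29018207, plus strand): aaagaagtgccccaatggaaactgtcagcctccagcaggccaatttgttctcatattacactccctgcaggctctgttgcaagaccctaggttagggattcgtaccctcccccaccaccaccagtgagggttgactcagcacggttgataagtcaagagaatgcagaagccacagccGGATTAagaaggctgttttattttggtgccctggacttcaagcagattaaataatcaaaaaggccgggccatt
In Cabp5 the matches begin 160 and 41 bases before the RefSeq start, in Isl1 177 and in Lrtm1 73 bases before it. Of 11 start sites of 8 markers in the RefSeq table, among them 4 of Pcp2 whose windows overlap, 3 (27.3%) held TAATCC within 250 bases on either strand, against 6.25% of all 32851 windows of that length. TAATTA, letters found in sites of many homeodomain proteins, was in 1 start site, of Pcp2 (9.09%, against 4.84% of all). CANNTG, the E box of bHLH factors, was in 8 (72.7%, against 66.2%). These matches are letters in a window, not measured binding.

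Vsx1, a homeodomain factor needed for the terminal differentiation of OFF cone bipolar cells, lies on chromosome 2 from 150680702 to 150689360 (GRCm38). It was at 31.2, 29.9, 56.0 and 35.45 CPM in GF-ND mice 9, 10, 11 and 12 and at 46.8, 43.8, 41.9 and 40.0 CPM in GF-HFD mice 13, 15, 16 and 19. The highest of the 8 values is that of GF-ND mouse 11, while the other 3 GF-ND mice lie below every GF-HFD mouse. Over all 8 mice the level was 43.1 ± 2.91 CPM with the high-fat and 38.1 ± 12.1 CPM with the normal diet (SD, n = 4 each). The fitted log2 fold change was 0.18 (SE 0.18, 95% interval -0.23 to 0.58, edgeR adjusted p = 0.808). It was 0.07 without GF-ND mouse 10 and 0.09 without GF-ND mouse 9 (edgeR adjusted p = 0.966 and 0.929). Without mouse 11 the log2 fold change of Vsx1 was 0.43 (SE 0.09, 95% interval 0.22 to 0.63, edgeR adjusted p = 0.0483), the only call among the 9 markers in the 18 alternative settings. That fit called 421 genes of 26338 (1.6%), 61 of them higher (0.232%), against 0 genes over all 8 mice. In a two-sided exact permutation test over all 8 mice, Vsx1 had p = 0.343, and 4 mice against 4 allow no p under 0.0286.

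Isl1, a LIM homeodomain factor of rod and ON cone bipolar cells that ganglion cells and cholinergic amacrine cells also make, lies on chromosome 13 from 116298281 to 116309689. Isl1 was at 70.5, 81.3, 84.7 and 89.2 CPM in GF-ND mice 9 to 12 and at 84.7, 88.5, 81.2 and 81.7 CPM in GF-HFD mice 13, 15, 16 and 19. The GF-HFD values lie inside the range of the GF-ND values. Its log2 fold change was 0.05 (SE 0.09, 95% interval -0.15 to 0.24), and it was -0.02 without GF-ND mouse 9, the lowest library. Among markers of the other cells that make Isl1, 9 of 9 ganglion cell genes had a higher fitted level (median 0.20) and summed to 666 to 934 CPM in GF-ND and 840 to 959 CPM in GF-HFD libraries. Of the 4 starburst amacrine genes 3 had a higher fitted level (median 0.08), with sums of 62.1 to 82.3 and 70.2 to 82.5 CPM, and none of these genes was at 0 counts. Of the 9 ganglion cell genes 1 had an unadjusted and 0 an adjusted p under 0.05 in edgeR (7.38% and 0% of all genes). Their part in the Isl1 level was not tested.

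Bhlhe23, a bHLH factor required for rod bipolar cells to mature and survive, lies on chromosome 2 from 180774381 to 180776900. Bhlhe23 was at 20.4, 20.3, 32.0 and 26.0 CPM in GF-ND mice 9 to 12 and at 39.6, 26.0, 32.3 and 23.1 CPM in GF-HFD mice 13, 15, 16 and 19. The groups overlap, with 2 GF-HFD mice above every GF-ND mouse. Its log2 fold change of 0.29 (SE 0.20, 95% interval -0.14 to 0.73, edgeR adjusted p = 0.707) was the highest fitted value of the 9 and had the widest interval, which reaches a 1.66-fold higher level. It was 0.14 without GF-HFD mouse 13 and 0.45 without GF-ND mouse 11 (unadjusted p = 0.0257, adjusted p = 0.162 in edgeR). Exons of Bhlhe23 share 144 bases with Gm14343, a processed transcript on the same strand that was at 0.871 ± 0.0452 CPM with the high-fat and 1.52 ± 0.494 CPM with the normal diet (SD, n = 4 each).

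**Figure D1:**
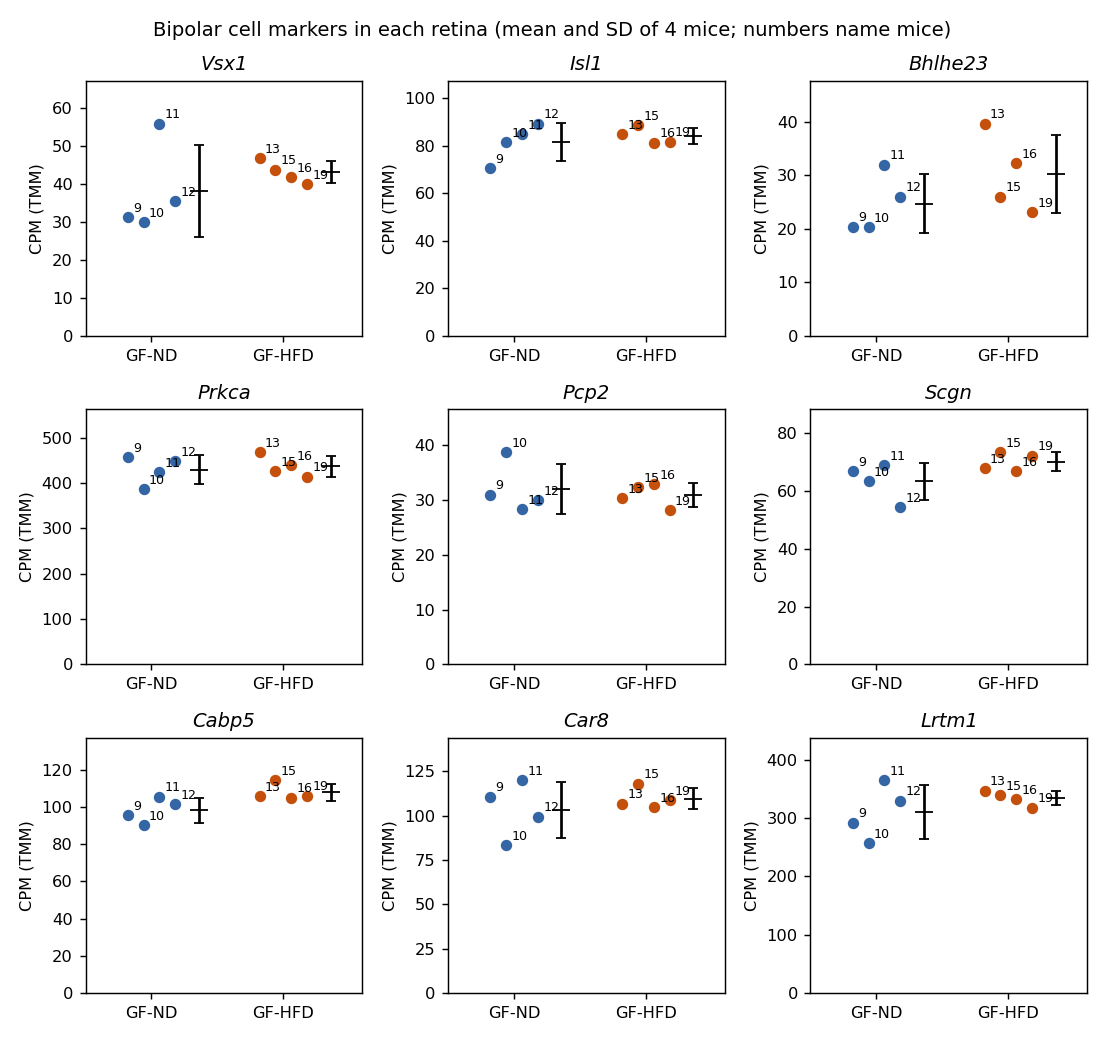
CPM (y axes from 0) of the 9 bipolar cell markers in each GF-ND (blue) and GF-HFD (orange) library, 1 point per mouse with its number, and the mean and SD of 4 mice (black). In every panel the groups overlap, and for Vsx1 and Cabp5 this rests on GF-ND mouse 11, at 56.0 and 105.5 CPM.

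Prkca encodes protein kinase C alpha, the standard stain of rod bipolar cells, and lies on chromosome 11 from 107933387 to 108343928. Prkca was at 458, 387, 425 and 449 CPM in GF-ND mice 9 to 12 and at 469, 426, 440 and 414 CPM in GF-HFD mice 13, 15, 16 and 19. The groups overlap, with GF-HFD mouse 13 highest and GF-ND mouse 10 lowest. A log2 fold change of 0.03 was fitted (SE 0.09, 95% interval -0.17 to 0.22, edgeR adjusted p = 0.953), so the interval ends at a 1.16-fold higher and a 0.89-fold level. Its exons share 30 bases with Apoh on the other strand, which stayed under 1 CPM with means of 0.349 CPM on the high-fat and 0.289 CPM on the normal diet.

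Pcp2, a GoLoco-domain protein of Purkinje cells and of rod and some ON cone bipolar cells, lies on chromosome 8 from 3623371 to 3625545. Pcp2 was at 31.0, 38.7, 28.3 and 30.0 CPM in GF-ND mice 9 to 12 and at 30.3, 32.3, 32.85 and 28.1 CPM in GF-HFD mice 13, 15, 16 and 19. GF-ND mouse 10 is the highest, and the other 7 retinas lie within 28.1 to 32.85 CPM. The log2 fold change of -0.05 (SE 0.11, 95% interval -0.30 to 0.20) was 0.05 without mouse 10. Exons of Pcp2 share 941 bases with Pet100 on the other strand, and the strand setting of the counting is not given in the sources used here, so the split of reads between them is uncertain. Pet100 was at 5.47 ± 0.876 CPM with the high-fat and 5.57 ± 0.702 CPM with the normal diet (SD, n = 4 each).

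Scgn and Cabp5 encode EF-hand calcium-binding proteins. Scgn, secretagogin, is made by several cone bipolar types and not by rod bipolar cells, and it lies on chromosome 13 from 23953456 to 23991214. It was at 66.9, 63.4, 69.0 and 54.3 CPM in GF-ND mice 9 to 12 and at 67.9, 73.5, 66.8 and 72.3 CPM in GF-HFD mice 13, 15, 16 and 19. All 4 GF-HFD mice lie above the GF-ND median, 2 of them above every GF-ND mouse, and GF-ND mouse 12 is the lowest. The log2 fold change of Scgn was 0.15 (SE 0.09, 95% interval -0.05 to 0.34, edgeR adjusted p = 0.687), and 0.08 without mouse 12.

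Cabp5, found in rod bipolar cells and in some ON and OFF cone bipolar types, lies on chromosome 7 from 13398132 to 13408887 with TAATCC in the window shown above. It was at 95.6, 90.1, 105.5 and 101.5 CPM in GF-ND mice 9 to 12 and at 105.9, 114, 105 and 106 CPM in GF-HFD mice 13, 15, 16 and 19. Of the GF-HFD mice 3 lie above every GF-ND mouse, and the fourth lies just under GF-ND mouse 11. Cabp5 had the smallest p of the 9 in edgeR (unadjusted p = 0.102, adjusted p = 0.667) and in the two-sided exact permutation test (p = 0.0571), with a log2 fold change of 0.14 (SE 0.08, 95% interval -0.03 to 0.30). The level was 108 ± 4.34 CPM with the high-fat and 98.2 ± 6.75 CPM with the normal diet (SD, n = 4 each).

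Car8, a carbonic anhydrase-related protein that binds the inositol trisphosphate receptor, lies on chromosome 4 from 8143362 to 8239041. Car8 was at 111, 83.2, 120 and 99.3 CPM in GF-ND mice 9 to 12 and at 107, 118, 105 and 109 CPM in GF-HFD mice 13, 15, 16 and 19, so all GF-HFD values lie between the GF-ND extremes, which are mice 10 and 11. For Car8 the log2 fold change was 0.08 (SE 0.11, 95% interval -0.16 to 0.33), and it was -0.01 without mouse 10 and 0.17 without mouse 11. Lrtm1, a membrane protein with leucine-rich repeats on chromosome 14 from 29018208 to 29033645, also had its GF-HFD values between those of GF-ND mice 10 and 11. It was at 292, 257, 364 and 329 CPM in GF-ND mice 9 to 12 and at 346, 339.5, 332 and 317 CPM in GF-HFD mice 13, 15, 16 and 19. For Lrtm1 the log2 fold change was 0.10 (SE 0.11, 95% interval -0.14 to 0.35), and it was 0.02 without mouse 10 and 0.19 without mouse 11 (unadjusted p = 0.0615, adjusted p = 0.241 in edgeR).

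**Figure D2:**
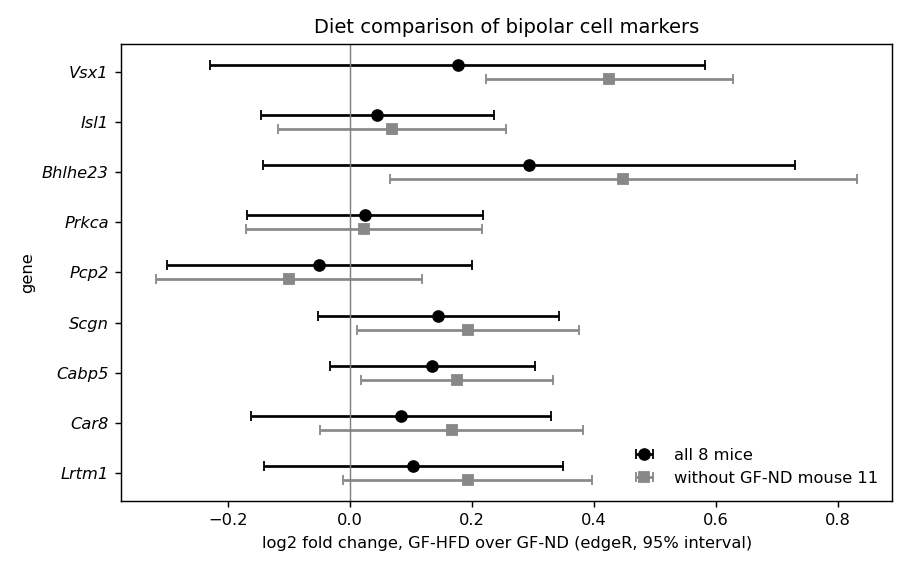
Log2 ratio of the GF-HFD to the GF-ND level (x axis) with its 95% interval from edgeR for each marker (y axis), over all 8 mice (black circles) and without GF-ND mouse 11 (grey squares). All black intervals include 0, and without mouse 11 those of Vsx1, Bhlhe23, Scgn and Cabp5 lie above 0, Vsx1 alone with an adjusted p under 0.05.

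Without GF-ND mouse 11, 4 of the 9 markers had an unadjusted p under 0.05 in edgeR, all higher, where 3177 of 26338 genes (12.1%) were higher at that threshold. The 4 are Vsx1, Bhlhe23, Scgn (log2 fold change 0.19) and Cabp5 (0.18). Isl1 was then at 0.07, Prkca at 0.02 and Pcp2 at -0.10 on the same scale. The median over the markers was then 0.18 and that over all genes 0.01. In 2 of the 9 markers all GF-HFD mice then lay above all GF-ND mice. The same held for 2513 of 26338 genes, and 2921 genes had all GF-HFD mice below. Mouse 11 was also left out together with GF-HFD mice 16 and 19, the libraries with the highest sums of pigment epithelium genes. That fit kept only GF-ND mice 9, 10 and 12 and GF-HFD mice 13 and 15, and so few mice can give fewer calls. It gave 0 markers and 0 genes at an adjusted p under 0.05, with Vsx1 at a log2 fold change of 0.50 (SE 0.12, edgeR adjusted p = 0.143). Genes of the pigment epithelium summed to 414 CPM in mouse 11, 492.5 in mouse 16 and 502 in mouse 19, and to 6.85 to 57.8 CPM in the other 5 libraries. Other tissues gave other orders, with more lens RNA in GF-ND mouse 10 (1515 CPM) than in GF-HFD mouse 16 (614 CPM) and the highest skeletal muscle sum in GF-HFD mouse 13 (31.7 CPM). The part of these tissues in the result was not tested.

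The markers varied more among GF-ND than among GF-HFD mice. The coefficient of variation (CV) was larger in GF-ND mice for 8 of 9 markers, the exception being Bhlhe23 (24.2% in GF-HFD and 22.4% in GF-ND mice). It was 6.76% against 31.8% for Vsx1 and 3.73% against 14.9% for Lrtm1. The same direction was found for 85.2% of the 10291 genes with at least 10 CPM in 4 libraries, so it is not particular to these markers. Without mouse 11 the GF-ND value was 8.98% for Vsx1 and 12.4% for Lrtm1, and 8 of 9 markers and 64.4% of genes still had the larger CV in GF-ND mice. GF-ND mouse 10 held the lowest GF-ND value of 6 markers and mouse 11 the highest of 6.

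Vsx1 and Lrtm1 ranked the libraries in nearly the same order. Their Pearson r was 0.90 and their Spearman rho 0.98 over the 8 libraries, and r was 0.88 without GF-ND mice 10 and 11. Bhlhe23 followed both less closely in rank, with r = 0.80 to Vsx1 and 0.79 to Lrtm1 (rho 0.79 and 0.83). Of the 28 pairs without Pcp2, 25 had an r above 0, and 19 without GF-ND mouse 10, left out here after the values were seen, where Prkca had an r below 0 with 6 of its 7 partners. Pcp2 had an r below 0 with each of the other 8 markers, from -0.755 with Car8 to -0.11 with Isl1, but only 4 of the 8 were below 0 without GF-ND mouse 10. These correlations describe 8 libraries that share their scaling across all genes.

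**Figure D3:**
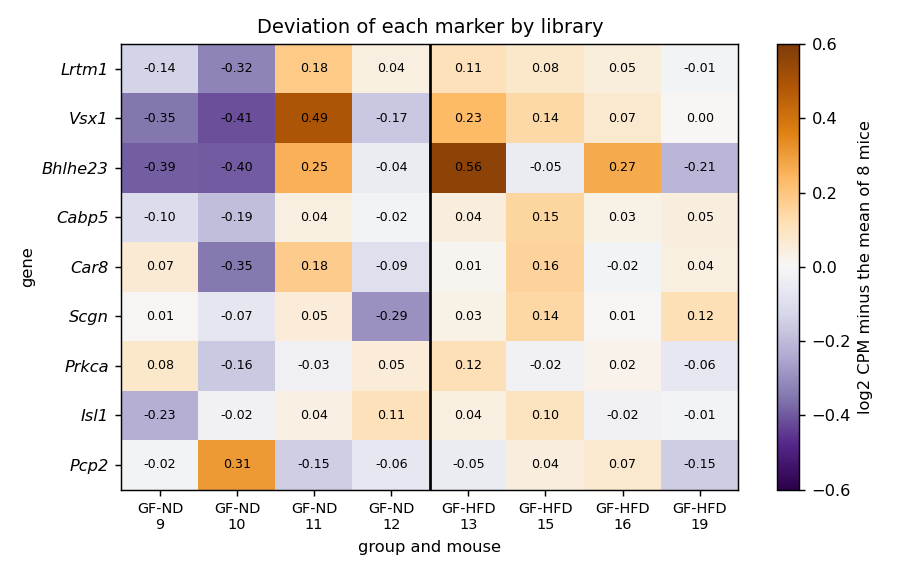
Log2 CPM of each marker (y axis) in each library (x axis) minus the mean of the 8 mice, with the difference printed in each cell. GF-ND mouse 10 is low for Lrtm1, Vsx1, Bhlhe23 and Car8 and high for Pcp2, and GF-ND mouse 11 is high for Vsx1. Bhlhe23 is about as low in GF-ND mouse 9 and is highest in GF-HFD mouse 13.

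Among the 10290 other genes with at least 10 CPM in 4 libraries, the gene most like each marker by Pearson r over the 8 libraries was Pcmtd1 for Vsx1 (0.98), Gtpbp8 for Isl1 (0.96), Secisbp2l for Bhlhe23 (0.97), Wbp4 for Prkca (0.92) and Lss for Pcp2 (0.95). For Scgn it was Hacd3 (0.99), for Cabp5 Sarnp (0.99), for Car8 Serpini1 (0.99) and for Lrtm1 Ap4s1 (0.99). Serpini1 alone of these is on the lists of bipolar cell genes. With 8 libraries and so many genes, values this high are found for every marker.

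Levels of different genes were set side by side per length, as CPM per kilobase of exon union. Prkca had the highest level at 48.2 ± 2.91, followed by Scgn at 41.2 ± 3.68, Cabp5 at 40.8 ± 2.92 and Lrtm1 at 40.6 ± 4.26 CPM per kilobase (SD over 8 mice). Prkca was above Scgn in 8 of 8 libraries, whereas Scgn was above Cabp5 in 5 and Cabp5 above Lrtm1 in 4, so these 3 do not differ beyond their spread. Car8 at 27.6 ± 2.99 lay below Lrtm1 in every library, with ranges that do not overlap. Isl1 (20.9 ± 1.47) and Pcp2 (17.2 ± 1.85) followed, Isl1 above Pcp2 in 7 of 8 libraries. The place of Pcp2 is uncertain, since 941 of its 1828 exonic bases are shared with Pet100 and the strand setting is not known. The transcription factors Bhlhe23 (10.9 ± 2.66) and Vsx1 (10.7 ± 2.26) were the lowest and were each above the other in 4 libraries.

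**Figure D4:**
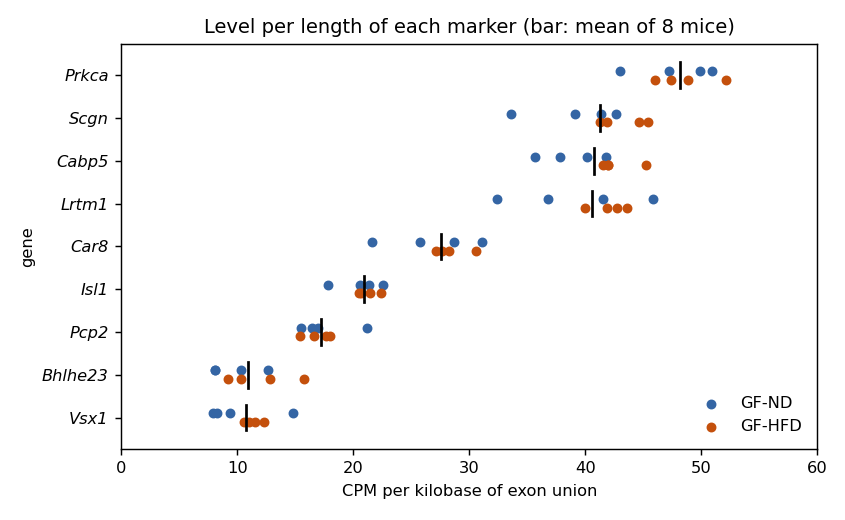
CPM per kilobase of exon union (x axis, from 0) of each marker (y axis) in the 4 GF-ND (blue) and 4 GF-HFD (orange) libraries, with the mean of 8 mice (bar). Prkca is highest at 48.2, Scgn, Cabp5 and Lrtm1 lie between 40.6 and 41.2, and Bhlhe23 and Vsx1 are lowest. The place of Pcp2 is uncertain because of exonic bases shared with Pet100.

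The wider set of bipolar cell genes gave 49 further genes on 5 lists, all of them tested, of which 31 had a higher and 18 a lower fitted level (median 0.06). In edgeR 0 of 49 had an adjusted p under 0.05 (0% of all genes), 1 was higher and 4 were lower at an unadjusted p under 0.05 (2.85% and 4.53% of all genes), and in 1 the groups did not overlap (4.83% of all genes). DESeq2 and limma-voom called 0 of the 49 as well. Without GF-ND mouse 11, edgeR called 2 of the 49 (1.6% of all genes), and the list medians moved from 0.12 to 0.22 for the transcription factors and from 0.04 to 0.23 for the OFF cone bipolar genes. For the mGluR6 cascade the median moved from -0.04 to -0.08.

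The 9 other transcription factors of bipolar cells all had a higher fitted level, from 0.04 to 0.32 (median 0.12). So did 46.3% of all genes and 61.3% of those with at least 10 CPM in 4 libraries. All genes were also higher on the lists of rods (9, median 0.31), ganglion cells (9, 0.20) and Mueller glia (6, 0.12). The same held for endothelial cells (5, 0.20) and microglia (7, 0.30). Of cone genes 5 of 7 were higher, of amacrine genes 5 of 6, of starburst amacrine genes 3 of 4 and of horizontal cell genes 2 of 4. Neurod4, a bHLH factor, was at 220.5 ± 9.12 CPM with the high-fat and 208 ± 33.0 CPM with the normal diet (SD, n = 4 each). Its log2 fold change was 0.09 (SE 0.11), 0.20 without mouse 11 and 0.007 without GF-ND mouse 10. At an unadjusted p under 0.05, 1 of the 9 factors was higher over all 8 mice (2.85% of all genes) and 5 were higher without mouse 11 (12.1% of all genes).

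Of 10 genes of the mGluR6 cascade, through which rod and ON cone bipolar cells answer glutamate, 4 had a higher and 6 a lower fitted level (median -0.04). The channel Trpm1 (-0.06, SE 0.08) and the G protein subunit Gnao1 (0.07, SE 0.12) were the most abundant in CPM. Gnao1 was at 0.19 without mouse 11 and at 0.007 without GF-ND mouse 12. Without mouse 11, 1 gene of the cascade was higher and 3 were lower at an unadjusted p under 0.05 (12.1% and 11% of all genes). Grm6, the receptor itself, and Rgs11, which speeds the end of the G protein signal, had an unadjusted p under 0.05 and are named for that, after their values were seen. Grm6 was at 136, 203, 131 and 156 CPM in GF-ND mice 9 to 12 and at 134, 111, 139 and 108 CPM in GF-HFD mice 13, 15, 16 and 19, with overlapping groups. Its log2 fold change was -0.35 (SE 0.15, edgeR adjusted p = 0.649), -0.20 without GF-ND mouse 10 and -0.42 without mouse 11 (edgeR adjusted p = 0.102). Rgs11 was at 51.6, 86.6, 45.2 and 65.3 CPM against 37.7, 43.8, 50.6 and 38.5 CPM in the same order. Its log2 fold change was -0.54 (SE 0.19, edgeR adjusted p = 0.649), -0.35 without mouse 10 and -0.66 without mouse 11 (edgeR adjusted p = 0.0516). In both genes mouse 10 holds the highest value, as it does for Pcp2.

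Of 6 further genes of rod bipolar cells, 3 had a higher and 3 a lower fitted level (median -0.01). Rpa1, a subunit of the single-strand DNA-binding protein RPA, was at 0.13 (SE 0.12) and Gabrr1, a GABA receptor subunit of bipolar cell terminals, at 0.06 (SE 0.07) on the log2 fold change scale. Rpa1 was at 0.27 without mouse 11 (edgeR adjusted p = 0.074) and at 0.06 without GF-ND mouse 12.

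Of 12 genes of OFF cone bipolar types, 8 had a higher and 4 a lower fitted level (median 0.04), and 0 had an unadjusted p under 0.05. Without mouse 11, 10 had a higher and 2 a lower fitted level (median 0.23), and 5 had an unadjusted p under 0.05 in edgeR, all higher (12.1% of all genes), with 0 past the adjusted threshold. The kainate receptor subunit Grik1, through which OFF cone bipolar cells receive glutamate, was at 125 ± 2.72 CPM with the high-fat and 121 ± 11.7 CPM with the normal diet (SD, n = 4 each), and the protocadherin Pcdh10 at 93.05 ± 7.19 and 85.5 ± 15.6 CPM (SD, n = 4 each). The log2 fold change was 0.04 for Grik1 and 0.12 for Pcdh10, and without mouse 11 it was 0.11 and 0.27 (edgeR adjusted p = 0.327 and 0.0909). For Grik1 it was 0.002 without GF-ND mouse 9, and for Pcdh10 0.07 without GF-ND mouse 10. Of 12 genes of ON cone bipolar types, 7 had a higher and 5 a lower fitted level (median 0.08). Serpini1, neuroserpin, was at 98.7 ± 5.54 CPM with the high-fat and 93.3 ± 12.9 CPM with the normal diet (SD, n = 4 each). On the log2 fold change scale it was at 0.08, at 0.17 without mouse 11 and at -0.001 without GF-ND mouse 10. Igfn1, a transcript marker of an ON cone bipolar type, was at 33.65, 70.9, 30.4 and 42.4 CPM in GF-ND mice 9 to 12 and at 27.2, 24.4, 34.1 and 32.15 CPM in GF-HFD mice 13, 15, 16 and 19. Its log2 fold change of -0.59 (SE 0.24, edgeR unadjusted p = 0.0362, adjusted p = 0.649) was -0.28 without mouse 10, again the library with the highest value. Without mouse 11 the log2 fold change of Igfn1 was -0.73 (edgeR adjusted p = 0.0842).

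**Figure D5:**
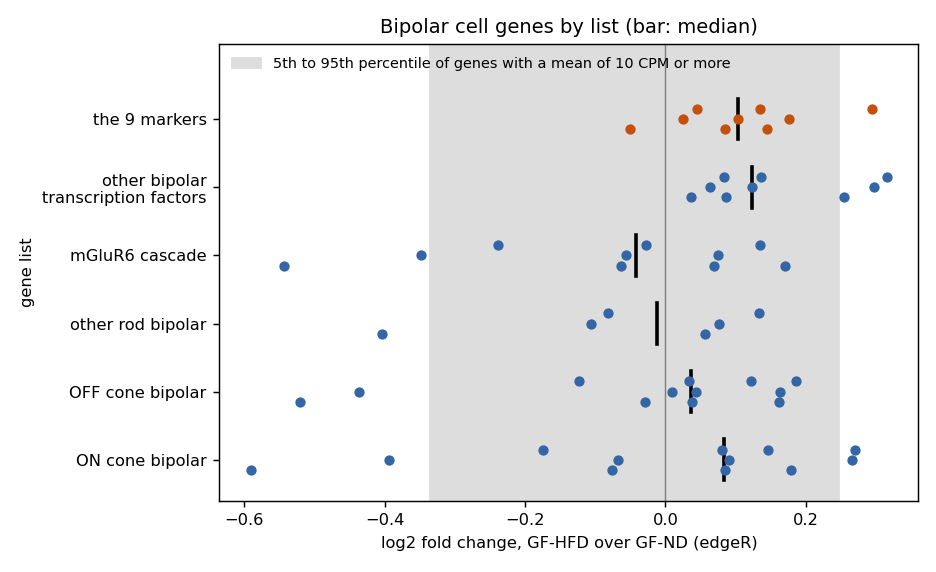
Log2 ratio of the GF-HFD to the GF-ND level (x axis, edgeR) of the 9 markers (orange) and of the genes of the 5 further bipolar cell lists (blue), with each list's median (bar) and the range from the 5th to the 95th percentile of genes with a mean of at least 10 CPM (grey). The medians lie between -0.04 and 0.12, and no gene of any list had an adjusted p under 0.05.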

How the data were processed

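Whole-retina RNA of 4 GF-ND and 4 GF-HFD mice was measured, 1 library per mouse. Per the labels and the study's methods, paired reads were aligned by STAR 2.4.2 (GRCm38, also named mm10) and assigned to genes by featureCounts (Subread 1.4.6-p1). The authors deposited whole-number counts for each gene symbol, unscaled and unfiltered. Among counts up to 12, even numbers outnumbered odd ones by a factor of 1.91 to 2.36 in each library. Counting errors that take every count as independent may therefore be too small.

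Counts were scaled by TMM and compared with edgeR 4.0.16 in R 4.3.3 (quasi-likelihood test on genes whose counts sum to 10 or more, p-values adjusted by Benjamini-Hochberg over every gene tested). The SE and 95% interval follow from its F statistic. Single genes were tested over 70 arrangements of log2 CPM (prior count 2). Alternatives were other scalings and filters, lens genes left out, DESeq2 1.42.0, limma-voom (limma 3.58.1) and mice left out. Lengths, positions and overlaps are from GENCODE vM21, while the study counted on another release. The members and lists were chosen with earlier results of these data known. Genes named are the 9 markers, the 2 of each further list with the highest mean CPM, the gene most like each marker by Pearson r, and those marked as chosen after their values were seen. No label gives a batch. Some genes that these rules name, counted in the lists, are not reported here.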

Additional observations from a re-analysis of the deposited data

Results flagged for a closer look

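Of 44 groups of 4 mice looked at (9 markers and 13 further bipolar cell genes in each diet), 2 had 1 mouse far from the other 3 by Dixon's test, where chance gives about 1 in 20. Cabp5 was at 114.3 CPM in GF-HFD mouse 15 and at 105 to 106 CPM in the other GF-HFD mice, and that mouse is also the highest GF-HFD library for Isl1, Scgn and Car8. Pcdh10 was at 108.9 CPM in GF-ND mouse 11 and at 76.35 to 79.1 CPM in the other GF-ND mice.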

How the results depend on the processing

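Over 18 alternative settings, 153 of 162 marker values kept their direction and their side of the threshold. Fold changes near 0 changed sign at 10 CPM in 4 libraries (log2 fold change -0.0143 for Isl1, -0.0339 for Prkca, -0.0139 for Grik1 and -0.00267 for Gabrr1) and with library totals (-0.0199 for Prkca). With mice left out in turn, the log2 fold change ran from -0.0177 to 0.0922 for Isl1, from -0.027 to 0.0573 for Prkca, from -0.0988 to 0.049 for Pcp2, from -0.0116 to 0.167 for Car8 and from -0.00149 to 0.166 for Serpini1. For Vsx1 it ran from 0.0712 (without GF-ND mouse 10) to 0.425 (without GF-ND mouse 11). The calls at an adjusted p under 0.05 ran from 0 to 1 of the 9 markers (Vsx1), from 0 to 2 of the 49 other bipolar cell genes and from 0 to 421 over all genes, in each case highest without GF-ND mouse 11. DESeq2 called 46 genes of the table and 0 of the 9 markers. With library totals, a scaling added after the values were seen for this order, 2 pairs of neighbours in the order per length had ranges apart, against 1 with TMM. The causes were not tested. No paired analysis was possible because the groups compared share no replicate numbers. With 4 mice a group, the intervals of the 9 markers end between 1.15-fold (Pcp2) and 1.66-fold (Bhlhe23) higher, and differences inside these intervals cannot be told from none.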
